A study of Homo sapiens with 6 samples.

Results

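Integrins, laminins and tetraspanins are the surface receptors, matrix ligands and membrane organisers through which a cell holds on to the basement membrane. The genes examined were 14 integrin alpha subunits, 7 integrin beta subunits, 10 laminin chains and 4 tetraspanins, 35 in all. They were read from arrays of ES-2 cells, a human line long established from an ovarian tumour, grown to the logarithmic phase. A gene was measured where a probe set, the group of probes that reads a transcript, named that gene alone, and of several the brightest on average was used, with the _x_at type, whose probes may hit related transcripts, only as a last resort. By this rule 33 of the 35 genes were measured, out of 18132 genes on the array. ITGB6 shared its probe sets with a second gene name, and LAMA3 was not analysed here.

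Total RNA from 3 samples labelled CADM1-overexpression and from 3 labelled as plain ES-2 cells, which the series calls mock controls, was hybridised to Affymetrix PrimeView arrays, 1 array each. CADM1 is an immunoglobulin-type adhesion molecule, and the series looked for pathways tied to its role as a tumour suppressor. In 2 overexpression samples the source name has CADM2 or CADM3 in place of CADM1. The labels used here name neither the vector nor whether the cells were a clone or a pool, and none says that replicates were cultured separately. P-values therefore measure the spread between arrays, which may be technical.

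The brightest CADM1 probe set went against the labels. This probe set, 11728805_a_at, read 8.14, 8.10 and 8.18 on the log2 scale on the arrays labelled overexpression. The control arrays read 10.24, 10.29 and 10.23. The difference was -2.12 (limma, adjusted p = 7e-15 over all probe sets). The other 5 CADM1 probe sets were not called. One of them, 11757557_s_at, ran the way the labels say, with 7.72, 7.61 and 7.58 on the arrays labelled overexpression and 7.49, 7.44 and 7.46 on the control arrays. Its groups did not overlap, and its difference was 0.17 (limma, adjusted p = 0.0962). Whether the labels of the groups were exchanged, or the brightest probe set lies outside the introduced sequence, was not tested. Directions are therefore those of the labels throughout: a negative difference means a lower level on the arrays labelled overexpression than on the arrays labelled control. A level depends on the probes as well as on the transcript, so no difference in level between genes was tested, and bright and dim describe the signal alone.

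An integrin is a pair of 1 alpha and 1 beta subunit, and the alpha subunit largely sets which matrix protein is bound. Laminins are trimers of an alpha, a beta and a gamma chain that build the sheet of the basement membrane, and several integrins are laminin receptors. Tetraspanins are small proteins that cross the membrane repeatedly and gather integrins and other proteins into patches, and CD151 is known for binding laminin receptor integrins directly.

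Across the 33 measured genes, ITGA2, ITGA6 and CD9 were lower and LAMB2 was higher on the arrays labelled overexpression. A gene was called at a limma adjusted p under 0.05, adjusted over all 18132 genes. These 4 calls are 12.1% of the 33, against 2.16% of all genes called in either direction, 1.20% called lower and 0.960% called higher. The changes were small. ITGA2 fell by 0.32 on the log2 scale, a signal 1.24-fold higher in the control arrays, and the other 3 called genes differed by at most 1.11-fold. The median difference of the 33 was -0.01, that of all genes 0.01, and 18 of the 33 lay below 0. Before adjustment 9 genes, 27.3%, had a p under 0.05, against 13.9% of all genes. The 3 values of each group did not overlap for 14 genes, 42.4%, against 18.3% of all genes. The mean level was at or above 6.19, the median over every probe set, for 22 of the 33 and for 9756 of the 18132 genes. Among all genes at or above that level, 3.86% were called and 20.7% had an unadjusted limma p under 0.05. Groups did not overlap for 24.9% of them. For the 22 these shares were 18.2%, 36.4% and 50%. Without a mean-variance trend in the fit none of the 4 was called, with limma adjusted p between 0.162 and 0.263. In that fit 12 of the 33 had an unadjusted limma p under 0.05, against 2080 of all 18132 genes. In RNA from whole cultures, fewer cells with a transcript and less transcript per cell cannot be told apart.

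**Figure D1:**
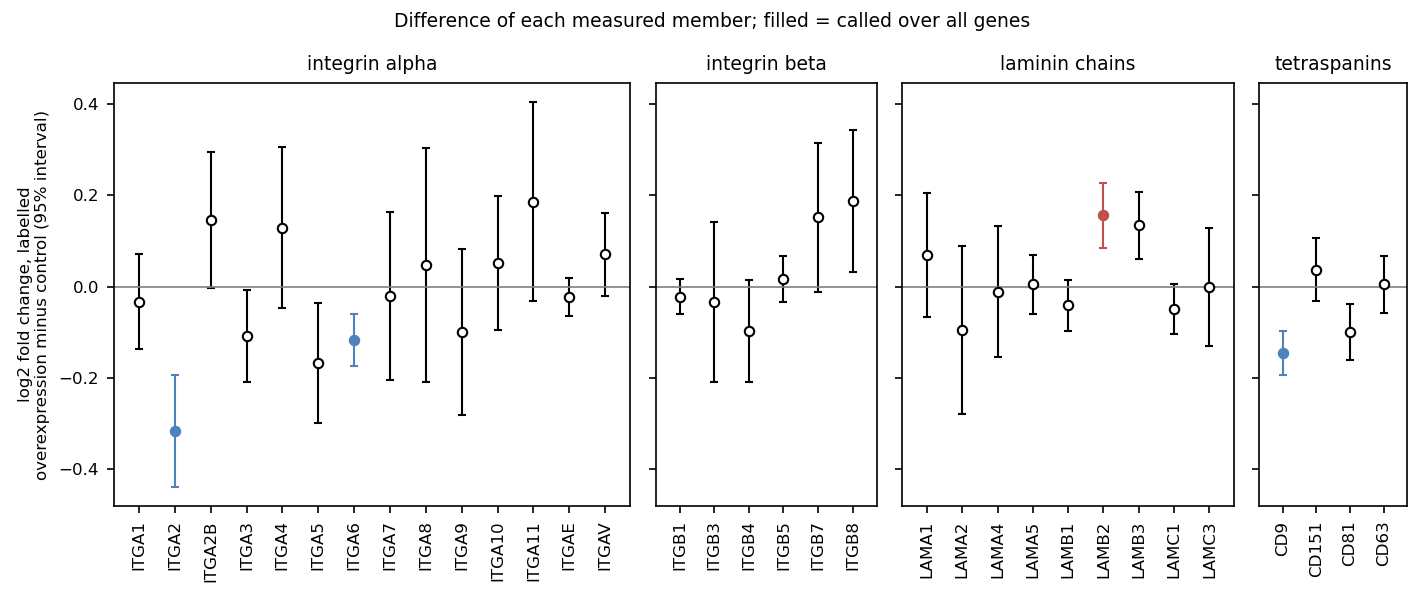
Log2 fold change (arrays labelled overexpression minus control, n = 3 each) of the 33 measured genes, by family, with the 95% interval of the fit; filled points are called over all genes. ITGA2, ITGA6 and CD9 are the filled points below 0, and LAMB2 is the filled point above 0.

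Among the collagen receptors, ITGA2 was lower. ITGA2 encodes the alpha chain that pairs with ITGB1 to bind collagen, and in some cells laminin. The arrays labelled overexpression read 6.86, 6.83 and 6.94 and the control arrays 7.14, 7.30 and 7.14. Every overexpression array lay below every control array, with the second control array the highest. The means were 6.88 ± 0.0575 (SD, n = 3) and 7.19 ± 0.0923 (SD, n = 3), and ITGA2 had a difference of -0.32 ± 0.0572 (SE; limma, adjusted p = 0.00993). Its dimmer probe set, 11743618_at, also had groups that did not overlap, with a difference of -0.21, and was not called among all probe sets (limma, adjusted p = 0.199). The ITGA2 call was lost without the first overexpression array (limma, adjusted p = 0.0688), the second (0.0523) or the second control array (0.0527), where the difference was -0.31, -0.29 and -0.26. The other collagen-binding alpha chains were not called. ITGA1 averaged 7.25 on the overexpression arrays and 7.28 on the control arrays, ITGA10 5.80 and 5.75, and ITGA11 5.23 and 5.04. Of the 2 ITGA11 probe sets, 1 had the positive sign and the other gave -0.09. The 95% interval of the ITGA1 difference was -0.14 to 0.07.

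Among the laminin receptors, ITGA6 was lower. ITGA6 pairs with ITGB1 or with ITGB4, and with ITGB4 it anchors hemidesmosomes, the rivets between epithelial cells and the basement membrane. It read 9.21, 9.20 and 9.20 on the arrays labelled overexpression and 9.32, 9.30 and 9.34 on the control arrays. The groups did not overlap, and the gap between them was wider than the spread within either. ITGA6 had a difference of -0.12 ± 0.0267 (SE; limma, adjusted p = 0.0365), and all 3 of its probe sets were negative, at -0.12, -0.19 and -0.04. Leaving out any 1 array ended the call, with adjusted p between 0.0603 and 0.134 and differences between -0.13 and -0.11. ITGA3, a laminin receptor chain of epithelia, read 7.38, 7.35 and 7.49 against 7.49, 7.53 and 7.51. Its groups did not overlap, by a narrow margin, and its difference of -0.11 was not called (limma, adjusted p = 0.314). ITGA7, the laminin receptor of muscle, averaged 4.68 and 4.70, a dim signal.

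None of the alpha chains that recognise the RGD motif of fibronectin and vitronectin was called by limma, and 1, ITGA5, had an unadjusted p under 0.05. ITGA5, the fibronectin receptor chain, read 6.88, 6.74 and 6.77 on the arrays labelled overexpression and 6.93, 6.89 and 7.07 on the control arrays. The groups did not overlap, although the first overexpression array and the second control array nearly met. ITGA5 had a difference of -0.17 ± 0.0612 (SE; limma, adjusted p = 0.216), and of its 4 probe sets 3 were negative. ITGAV, the chain shared by the vitronectin receptors, averaged 8.95 and 8.88, with overlapping groups and a 95% interval of -0.02 to 0.16. ITGA8 averaged 3.95 and 3.90. ITGA2B, the platelet fibrinogen receptor chain, averaged 5.62 and 5.48, with groups that did not overlap and an uncalled difference of 0.14. It was dim, below the median over every probe set. ITGA2B probe sets 11749951_a_at and 11731161_at gave 0.02 and 0.07, with overlapping groups. The summed signal of 4 other platelet genes lay between 7.28 and 7.37 on the log2 scale on the overexpression arrays and between 7.07 and 7.27 on the control arrays, with PPBP at 2.88 and PF4 at 4.85. GP9, at 6.41 the brightest of the 4, differed by 0.18 and GP1BA, at 4.94, by 0.13, both uncalled and with overlapping groups. Their part in the ITGA2B difference was not tested.

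The remaining alpha chains belong mostly to leukocytes. ITGAE, which pairs with ITGB7 to bind E-cadherin, read 11.45, 11.45 and 11.47 on the arrays labelled overexpression and 11.47, 11.49 and 11.48 on the control arrays. The groups were apart by less than the rounding of these values, and the difference of -0.02 was not called (95% interval -0.06 to 0.02). ITGA4 averaged 3.38 and 3.25, with 1 of its 5 probe sets positive and the other 4 negative. ITGA9 averaged 4.66 and 4.76. Leukocyte genes were mostly dim, with PTPRC, the common leukocyte antigen, at 2.96, ITGB2, the leukocyte beta chain, at 5.26 and 1 of 9 reaching the median over every probe set.

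No beta subunit was called by limma, and 1 of the 6 measured, ITGB8, had an unadjusted p under 0.05. ITGB1, the partner of most collagen, laminin and fibronectin receptor chains, read 12.73, 12.75 and 12.77 on the arrays labelled overexpression and 12.78, 12.76 and 12.78 on the control arrays. The groups overlapped. The 95% interval of its difference ran from -0.06 to 0.02, and the differences of its partners ITGA2 and ITGA6 lie outside that range, though differences between genes were not tested. Of its 5 probe sets 3 were negative, and 11715728_a_at, with groups that did not overlap, gave -0.08 (limma, adjusted p = 0.220 over all probe sets). ITGB5, a vitronectin receptor chain, read 10.32, 10.31 and 10.36 against 10.31, 10.34 and 10.30, and its groups overlapped. ITGB4, the hemidesmosome partner of ITGA6, averaged 6.78 and 6.88. Its groups did not overlap, the difference of -0.10 was not called (limma, adjusted p = 0.433), and 5 of its 8 probe sets were negative.

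ITGB8, which with ITGAV holds and activates latent TGF-beta, read 5.37, 5.45 and 5.43 on the arrays labelled overexpression and 5.19, 5.24 and 5.26 on the control arrays. The overexpression arrays were all higher, with a difference of 0.19 ± 0.0725 (SE; limma, adjusted p = 0.242), and 2 of its 4 probe sets were positive. ITGB7 averaged 5.31 and 5.16, also without overlap, and its second probe set gave -0.05. ITGB3, the partner of ITGA2B and ITGAV, averaged 4.82 and 4.86. All 3 of these beta chains were dim, below the median over every probe set.

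Among the laminins, LAMB2 was higher. LAMB2 is the beta chain of laminins in mature basement membranes of muscle, nerve and kidney, where it takes the place of LAMB1. The arrays labelled overexpression read 8.65, 8.69 and 8.73 and the control arrays 8.53, 8.53 and 8.54. The control arrays were tightly grouped, at 8.54 ± 0.00508 (SD, n = 3), and the overexpression arrays were all above them, at 8.69 ± 0.0447 (SD, n = 3). LAMB2 had a difference of 0.16 ± 0.0330 (SE; limma, adjusted p = 0.0256), a 1.11-fold higher signal, from its single probe set. Without any 1 array the call was lost, with adjusted p between 0.0531 and 0.108 and differences between 0.13 and 0.18.

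LAMB3, the beta chain of the laminin that hemidesmosomes bind, read 8.43, 8.42 and 8.47 on the arrays labelled overexpression and 8.32, 8.34 and 8.27 on the control arrays. The overexpression arrays were all higher, the difference of 0.13 ± 0.0344 (SE) was not called (limma, adjusted p = 0.0614), and its second probe set gave 0.05. After quantile normalization LAMB3 was called (adjusted p = 0.0301), as it was with median centring (0.0467) or when dimmer genes, below the median level, were left out (0.0364). LAMB1, the beta chain of the widespread laminins, averaged 9.62 and 9.66. Its difference was -0.04, with a 95% interval of -0.10 to 0.01.

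The laminin gamma and alpha chains were not called. LAMC1, the gamma chain of most laminins, read 10.23, 10.28 and 10.27 on the arrays labelled overexpression and 10.27, 10.34 and 10.32 on the control arrays. The groups overlapped in this probe set. Of its 5 probe sets 4 were negative, and in both 11716053_a_at and 11716051_at, with differences of -0.11 and -0.08, the groups did not overlap. LAMA5, the alpha chain of the widespread epithelial laminins, read 9.92, 9.89 and 10.00 against 9.95, 9.95 and 9.90, and its groups overlapped. Its 95% interval was -0.06 to 0.07. LAMA1 averaged 6.81 and 6.74, LAMA2, the muscle alpha chain, 4.90 and 4.99, LAMA4, the vascular alpha chain, 7.06 and 7.07, and LAMC3 6.23 on the arrays of either label.

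**Figure D2:**
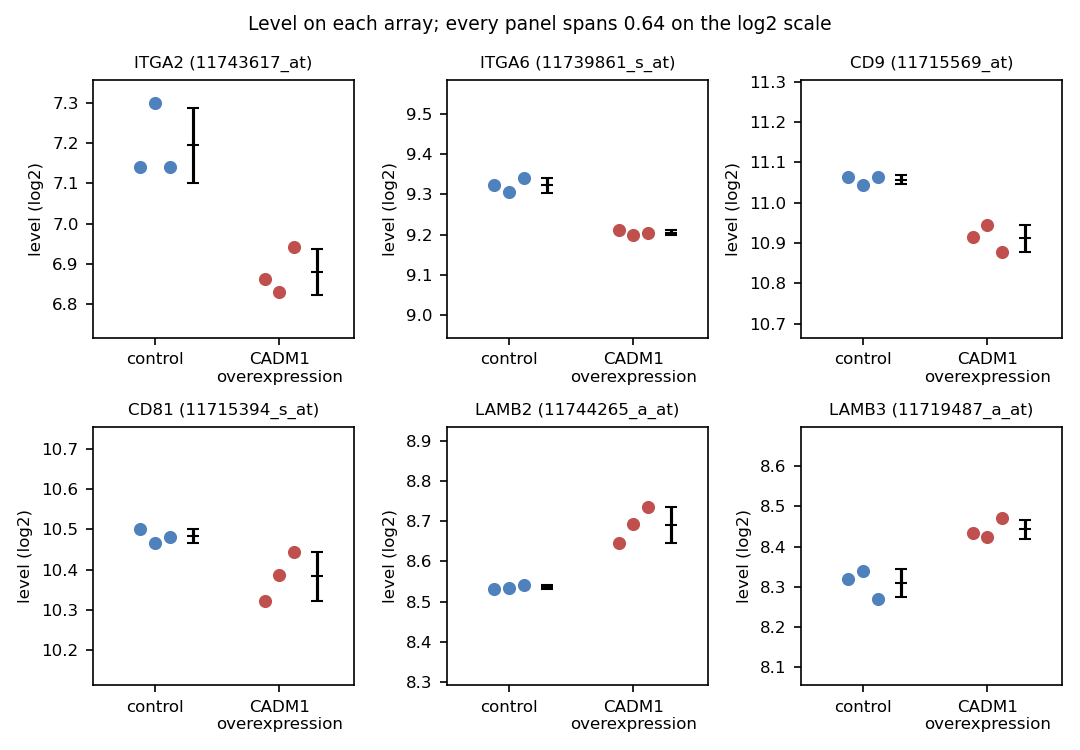
Level (log2) of 6 genes on each array, those labelled control in blue and those labelled overexpression in red, with the mean and SD (n = 3) beside the points; every panel spans the same height. In each panel the groups do not overlap: ITGA2, ITGA6, CD9 and CD81 are lower and LAMB2 and LAMB3 higher in red, and CD81 and LAMB3 were not called.

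CD9 was the tetraspanin that changed. CD9 associates with ITGB1 integrins and with membrane growth factor precursors, and is a marker of exosomes. It read 10.92, 10.94 and 10.88 on the arrays labelled overexpression and 11.06, 11.05 and 11.06 on the control arrays. The groups did not overlap, and CD9 had a difference of -0.15 ± 0.0225 (SE; limma, adjusted p = 0.00346). It was the 1 gene of the 33 that stayed called without each array in turn, with differences between -0.16 and -0.13.

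The probe sets of CD9 fell into a bright and a dim class. The 6 with mean levels above 9 were all negative, from -0.16 to -0.10, and in all 6 the groups did not overlap. Among all 44988 probe sets naming 1 gene, of which 1.50% were called, 5 of these 6 were called and the other, 11763855_x_at, was not (limma, adjusted p = 0.0651). The 3 dim ones, at 4.98, 4.57 and 3.37, gave 0.01, -0.01 and 0.20 and were not called. Averaging all 9 gave -0.06, and CD9 was then not called (limma, adjusted p = 0.322). In all, 8 of the 100 probe sets of the 33 genes were called, the other 3 being those that represent ITGA2, ITGA6 and LAMB2.

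**Figure D3:**
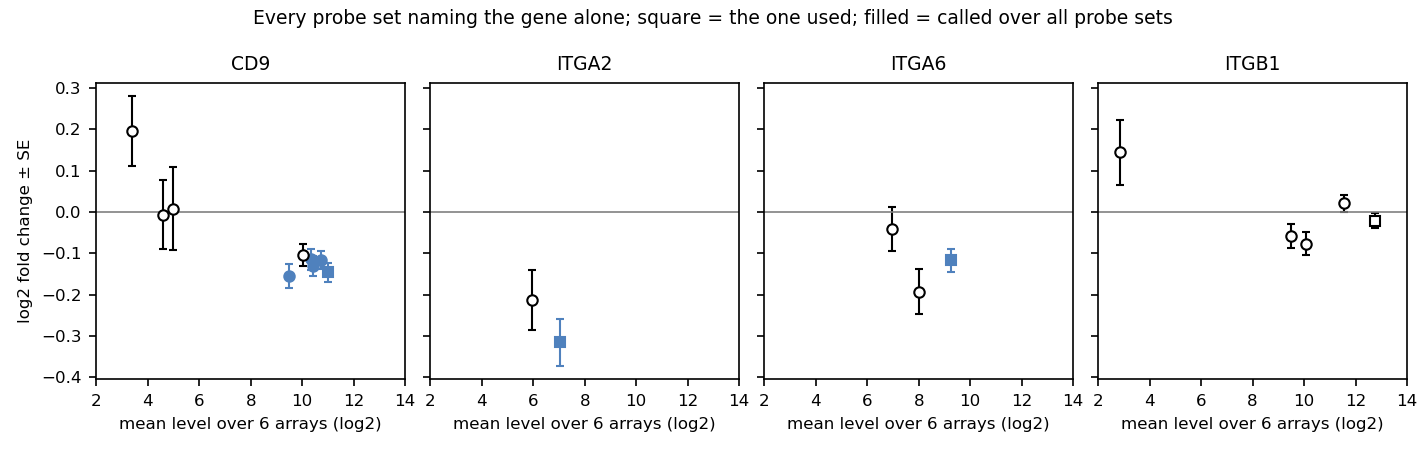
Log2 fold change ± SE against mean level over the 6 arrays (log2) for every probe set that names CD9, ITGA2, ITGA6 or ITGB1 alone; squares mark the probe set used for the gene, and filled points were called over all probe sets. The 6 bright CD9 probe sets lie together between -0.16 and -0.10, while the ITGB1 probe sets lie on both sides of 0.

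CD81, part of the B cell coreceptor and a companion of CD9 in membrane patches, read 10.32, 10.39 and 10.44 on the arrays labelled overexpression and 10.50, 10.47 and 10.48 on the control arrays. The overexpression arrays were all lower and more widely spread. CD81 had a difference of -0.10 ± 0.0289 (SE) and was not called (limma, adjusted p = 0.102). Without the third overexpression array, the highest of that group, the difference was -0.13 and was called (adjusted p = 0.0265). CD151, the tetraspanin that binds laminin receptor integrins most firmly, averaged 9.83 and 9.79 with overlapping groups and a 95% interval of -0.03 to 0.11. All 5 CD151 probe sets were positive, from 0.00 to 0.04. CD63, a tetraspanin of late endosomes and exosomes, read 11.81, 11.90 and 11.84 against 11.83, 11.79 and 11.91, and its groups overlapped. Its 95% interval was -0.06 to 0.07.

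The sequence before the start is shown for 3 of the 4 called genes, ITGA2 and ITGA6, which were lower, and LAMB2, which was higher. CD9, also called lower, is described by its motif counts only. The sequences shown are the 250 bases ahead of the outermost start that RefSeq (GRCh38.p14) gives each gene. The window of ITGA2 is chr5:52989102-52989351 on the plus strand, that of ITGA6 is chr2:172427086-172427335 on the plus strand and that of LAMB2 is chr3:49133051-49133300 on the minus strand. Each is written 5′ to 3′ along the gene, with capitals marking any match, on either strand, to a motif searched.
ITGA2: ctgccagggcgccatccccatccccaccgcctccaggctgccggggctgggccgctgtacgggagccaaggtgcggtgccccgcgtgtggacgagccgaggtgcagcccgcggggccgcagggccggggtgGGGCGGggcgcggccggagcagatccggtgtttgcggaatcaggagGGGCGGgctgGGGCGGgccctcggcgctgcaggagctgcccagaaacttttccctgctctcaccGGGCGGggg
ITGA6: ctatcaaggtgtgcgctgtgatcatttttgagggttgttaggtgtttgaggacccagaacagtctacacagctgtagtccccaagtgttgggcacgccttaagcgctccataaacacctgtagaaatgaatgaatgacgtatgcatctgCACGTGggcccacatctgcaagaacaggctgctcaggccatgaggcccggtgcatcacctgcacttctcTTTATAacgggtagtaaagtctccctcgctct
LAMB2: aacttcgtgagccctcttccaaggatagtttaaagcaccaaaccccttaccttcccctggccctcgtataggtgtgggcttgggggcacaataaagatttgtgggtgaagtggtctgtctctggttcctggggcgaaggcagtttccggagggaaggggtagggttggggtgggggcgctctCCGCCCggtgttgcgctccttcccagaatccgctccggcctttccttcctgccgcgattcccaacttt
The motifs were GGGCGG (the GC box of SP1 factors), CCGGAAG (a core of ETS factors), TGANTCA (AP-1), TGACGTCA (the cAMP element), CACGTG (an E-box), GGAATG (TEAD factors), TATAAA (the TATA box) and TTTCNNTTT (a core of interferon elements). The capitals in ITGA2 are 4 GC boxes and those in LAMB2 are 1 GC box, on the opposite strand. Those in ITGA6 are an E-box and, on the opposite strand, a TATA box. A GC box was present in 42.6% of the 35116 windows of all genes and in 22 of the 41 windows of the 24 members found in the table. An E-box was present in 6.34% and a TATA box in 10.7% of all windows. CD9 had 4 windows, with 0, 6, 3 and 0 GC boxes from the outermost inward. ITGA6 had a second window with 3 GC boxes and, on the opposite strand, an ETS core, present in 8.52% of all windows. GC made up 76.4% of the ITGA2 window, 50.8% of that of ITGA6 and 58.4% of that of LAMB2, against a median of 58.0% over all windows. The arrays do not tell which start was used, and a match in letters is not a binding site.

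Among 45 measured focal adhesion and integrin-binding genes, 4 were called higher and none was called lower, by limma. The 4 are 8.89% of the list, against 2.16% of all genes called in either direction and 0.960% called higher. Of the 45, 40 were at or above the median over every probe set, and of all genes at that level 3.86% were called. Before adjustment 9, or 20%, had a p under 0.05, against 13.9% of all genes and 20.7% of those at that level. Of the 9, FERMT1, the epithelial kindlin, was the 1 below 0, at -0.19 (limma, adjusted p = 0.224). The called genes were DST, a linker of hemidesmosomes and filaments, which rose by 0.17 (limma, adjusted p = 0.00128), and DAB2, an adaptor in integrin endocytosis, by 0.17. PARVA, the parvin that ILK recruits to integrin tails, rose by 0.12, and FERMT2, the kindlin that activates integrins, by 0.09. DAB2 read 10.38, 10.30 and 10.34 on the arrays labelled overexpression and 10.14, 10.18 and 10.19 on the control arrays. FERMT2 read 12.37, 12.35 and 12.33 against 12.26, 12.25 and 12.29. In each the groups did not overlap. DST and DAB2 stayed called without each array in turn, PARVA in 1 and FERMT2 in 2 of the 6 such fits. With the mean of all probe sets the DST difference was 0.10 and was not called (limma, adjusted p = 0.217), and with median centring FERMT2 was not called (0.0605). The median difference of the 45 genes was 0.02, against 0.01 for all genes. Above 0 were 36 of the 45 and 9896 of all 18132 genes, and with the mean of all probe sets 30 of the 45 and 9776 of all genes.

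Among 43 measured integrin ligands and basement membrane genes, VTN was lower and CCN1 was higher. These are 4.65% of the list, against 2.16% of all genes and 3.86% of all genes at or above the median level. VTN encodes vitronectin, bound by the ITGAV integrins, and read 12.06, 12.07 and 12.07 on the arrays labelled overexpression and 12.25, 12.27 and 12.29 on the control arrays. It fell by 0.20 (limma, adjusted p = 4.17e-05), with groups far apart for their spread. CCN1, a matrix protein bound by ITGAV and ITGA6 integrins, read 9.42, 9.41 and 9.36 against 9.13, 9.17 and 9.17. CCN1 rose by 0.24 (limma, adjusted p = 0.000402). Both were called without each array in turn. Without a mean-variance trend neither was called, with limma adjusted p of 0.121 for VTN and 0.109 for CCN1. DST, DAB2, PARVA and FERMT2 were not called then either, with limma adjusted p between 0.149 and 0.386. The median of the 43 was 0.03. Of 40 measured other tetraspanins and tetraspanin partners none was called by limma, with 8 at an unadjusted p under 0.05, 7 of them lower. These 8 are 20% of the list, against 13.9% of all genes and 20.7% of all genes at or above the median level. At that level were 29 of the 40. The median of the list was -0.02, and 0.01 with the mean of all probe sets. CD44, the hyaluronan receptor, had the lowest p of these, with a difference of -0.16 (limma, adjusted p = 0.0600). The absence of calls in this list did not hold under every setting. With the mean of all probe sets 3 of the 40 were called by limma, 2 lower and 1 higher. With genes below the 25th percentile removed 1 of 36 was called lower, and with those below the median removed 1 of 29. With array weights, or without the third overexpression array, 1 of the 40 was called lower.

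**Figure D4:**
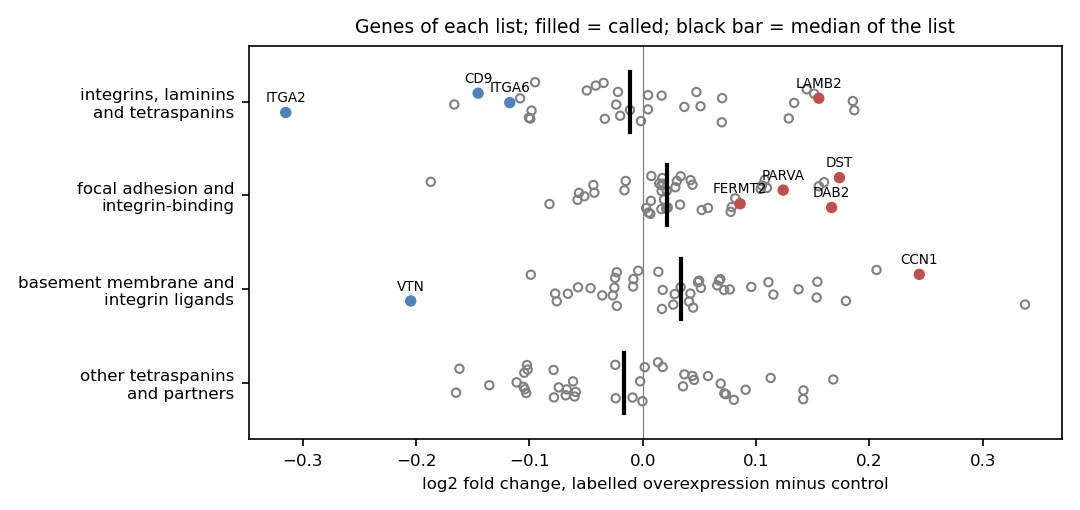
Log2 fold change of the 33 integrin, laminin and tetraspanin genes and of 3 lists of related genes, 1 point a gene, with called genes filled and named and a black bar at each list's median. The medians lie between -0.02 and 0.03; the called genes are on both sides of 0 among the integrins, laminins and tetraspanins and among the ligands, and above 0 in the focal adhesion list.

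Array medians lay between 6.18 and 6.20, and the correlation between arrays over all genes was at least 0.998. The keratin genes KRT7, KRT8 and KRT18, which mark simple epithelia, were bright, at 12.50, 12.98 and 13.26. KRT8 and KRT18 were read only by _x_at probe sets, which may hit related transcripts. KRT19, another keratin of the list, was dim at 5.54, below the median over every probe set. EPCAM at 2.95 and CDH1 at 4.83, both epithelial adhesion genes, and the Müllerian factors PAX8 at 4.65 and WT1 at 4.24 were dim, below that median; no detection calls were used. The summed signal of 6 epithelial genes was 14.49 to 14.52 on the arrays labelled overexpression and 14.56 to 14.57 on the control arrays. Signals were added on the linear scale, so KRT7, KRT8 and KRT18 made up most of this sum. They differed by -0.06, -0.04 and -0.07, uncalled and without overlap. CDH1 went the other way, by 0.18, also uncalled and without overlap, and the groups of KRT19 and EPCAM overlapped. The summed signal of 5 ovarian genes was 10.29 to 10.35 against 10.21 to 10.24. Of these 5, MSLN, which encodes mesothelin, was the brightest at 10.02, with groups that did not overlap and an uncalled difference of 0.10 (limma, adjusted p = 0.0571), NAPSA was at 6.88 and MUC16 at 5.46. The summed ranges of the groups overlapped for neither the epithelial nor the ovarian genes, and their part in the differences of ITGA6 and CD9 was not tested. Of 9 leukocyte, 4 platelet, 5 endothelial, 6 fibroblast and 4 muscle genes 1 was called, CDH5, which was lower. Of all genes 2.16% were called.

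**Figure D5:**
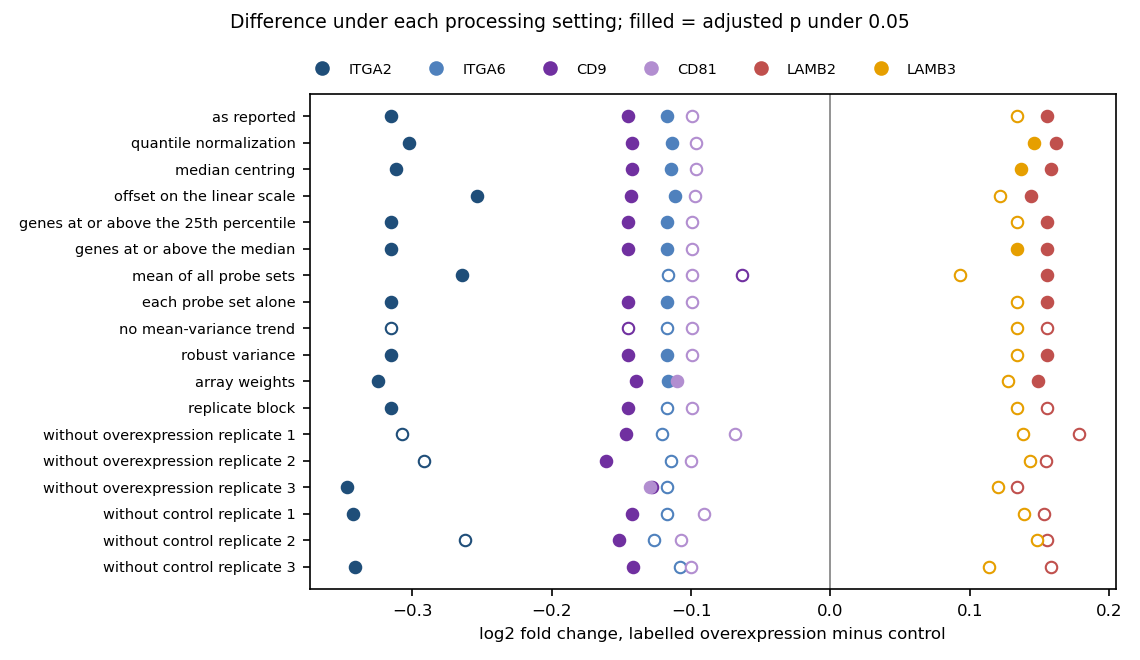
Log2 fold change of 6 genes as reported and under each of 17 alternative settings; filled points have an adjusted p under 0.05. No point crosses 0, and several of the settings could not move a point across it. CD9 moves towards 0 with the mean of all probe sets, and no gene is filled without the mean-variance trend.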

How the data were processed

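The authors deposited log2 expression values of 49395 probe sets on 6 arrays, and MAS5 is named, without a version, per the submitters' processing notes. The log base was inferred from the values, which run from 2.15 to 14.33, while scaling between arrays and the probe summary stay unknown here. Symbols came from the platform annotation, updated through gene numbers (44988 probe sets named 1 gene), and array controls were left out. The groups were compared over all genes with limma 3.58.1 in R 4.3.3 (lmFit, eBayes with a mean-variance trend, two-sided, Benjamini-Hochberg over 18132 genes), with no filter, and the fit was tested on simulated data. The number of arrays limits the precision. The genes, lists and markers were chosen with earlier results of these data known. Values by array are given for genes called, for those with an unadjusted p under 0.05 and for the brightest pair of each family; related lists name their called genes, while CD44 and CDH5 were picked after their values were seen. Deviations from the group mean on same-numbered arrays had correlations of 0.13, -0.07 and -0.07, which with 3 arrays a group cannot settle pairing. The replicate number was used as an alternative only. Figures used matplotlib 3.10.9.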

Additional observations from a re-analysis of the deposited data

How the results depend on the processing

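The 4 calls among the 33 genes (392 among all genes) were not kept under every setting. Without a mean-variance trend 0 of the 33 were called by limma, and 11 of all genes. In that fit 12 of the 33 and 2080 of all genes had an unadjusted limma p under 0.05. With the replicate number as a block, 2 of the 33 (ITGA2 and CD9) and 172 of all genes were called. Whether equal numbers pair these arrays is not known here. The mean of all probe sets called 2 of the 33, ITGA2 and LAMB2, and 354 of all genes. LAMB2 has a single probe set, so its values were the same in this setting. Tested one by one, 677 probe sets were called. Without each array in turn, between 1 and 3 of the 33 and between 116 and 375 of all genes were called, with CD9 among them each time. Under quantile normalization, median centring, a linear offset of 32, robust variance and array weights, 4 or 5 of the 33 were called. Of all genes between 353 and 498 were called in these settings. With genes below the 25th percentile removed, 4 of 31 were called, against 484 of 14194 genes. With those below the median removed, 5 of 22 were called, against 563 of 9756 genes. None of ITGA2, ITGA6, CD9 and LAMB2 changed sign in any of the 17 alternatives, but several of these could not change it. Level filters, probe sets tested alone, the variance settings and the block left each difference as it was. With groups that do not overlap, leaving out or weighting arrays cannot turn the sign. The causes of lost calls were not tested. Signal over background was not assessed.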
